A study of Mus musculus with 6 samples.

Results

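The genes described here encode the WNT ligands, the frizzled receptors and the proteins around them that strengthen or weaken a WNT signal at the cell surface. They were taken from the count table by name, as the protein-coding genes called Wnt, Fzd, Sfrp, Rspo or Dkk with a number, together with Frzb, Wif1, Lgr4, Lgr5, Lgr6, Lrp5, Lrp6, Axin2, Znrf3, Rnf43, Ror1, Ror2 and Notum. This gave 54 of the 55487 genes in the table. The RNA came from wild-type C57BL/6 lung fibroblasts in primary culture, grown in 10% serum and held in 0.1% serum for 24 h. The cells then received PBS, or 1 µg/mL of rmCIRBP, the recombinant mouse form of cold-inducible RNA-binding protein (CIRBP), for 24 h, with 3 libraries per group from polyA-selected RNA. All groups share the starvation and the wild-type background, and nothing in the labels ties replicates to separate animals or cultures. The p-values therefore rest on the spread among these libraries, which could be technical.

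WNT ligands are lipid-modified secreted proteins that bind frizzled receptors. With the co-receptors LRP5 and LRP6 they stabilise β-catenin, and with the kinases ROR1 and ROR2 they act without it. Secreted frizzled-related proteins (the Sfrp genes and Frzb) bind WNT ligands outside the cell, Dickkopf proteins act on the LRP co-receptors, and R-spondins bind LGR receptors and the ubiquitin ligases ZNRF3 and RNF43, which otherwise remove frizzled receptors from the surface. Lung fibroblasts are a known source of WNT ligands and R-spondins for the epithelium, and the pathway is much studied in lung repair and fibrosis.

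The libraries held 12105584 to 14262375 counts, of which 0.155% to 0.199% fell on the 54 genes. Levels are in CPM, counts scaled to library size with a correction for composition. A library with 0 counts of a gene may still have held up to 3, or 0.210 to 0.248 CPM, counting error only. The 10 fibroblast markers summed to 34460 to 38890 CPM in PBS and 32750 to 39270 CPM in rmCIRBP, Col1a1 lying between 7802 and 11730 CPM, although Lum, another marker of these cells, was at 0.577 to 2.64 CPM. Of the 10, Dcn was called higher (log2 fold change 1.21) and Thy1 (-1.21) and Vim (-0.88) lower. Of the other cell types looked for, 11 epithelial markers summed to 2.33 to 6.31 CPM in all libraries, with Sftpa1, Krt8 and Nkx2-1 at 0 counts. Smooth muscle and pericyte markers, 10 genes, summed to 5349, 2656 and 2795 CPM in PBS 1 to 3 and to 4662, 10040 and 2017 CPM in rmCIRBP 1 to 3, so that rmCIRBP 2 stood highest and rmCIRBP 3 lowest. Among them Cspg4 was called lower (log2 fold change -2.05). The 9 endothelial markers summed to 20.3 to 27.7 CPM in PBS and 7.002 to 8.44 CPM in rmCIRBP, most of it from Kdr and Tek, both called lower, while Tie1, Emcn and Cldn5 were at 0. Macrophage markers (9 genes) summed to 115 to 150 CPM in PBS and 74.1 to 143 CPM in rmCIRBP, mostly Lyz2. Of these 9, Marco and Adgre1 were called higher (log2 fold changes of 5.52 and 2.46) and Mrc1 lower (-1.65). The 6 mesothelial markers summed to 11.3 to 18.1 CPM in PBS and 4.39 to 10.2 CPM in rmCIRBP, with Upk3b called lower. The part of these markers in the results was not tested. In bulk RNA, fewer cells of a type and less RNA per cell cannot be told apart.

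The comparison of rmCIRBP with PBS asked how extracellular CIRBP changes the fibroblasts' transcripts. Within the WNT genes, transcripts of the secreted WNT-binding proteins Sfrp1, Sfrp2 and Frzb and of the R-spondins Rspo1 and Rspo3 rose. The ligand Wnt9a, the receptors Fzd2 and Fzd6, the co-receptor Lrp6 and the R-spondin receptor Lgr6 fell, the last of these having enough counts for the test in PBS alone. Of the 54 genes, 29 had enough counts to be tested, and 5 of these were called higher and 5 lower by edgeR's quasi-likelihood test at an adjusted p of 0.05. Over all 15801 genes tested, 6.74% were called higher and 4.77% lower, 11.5% in all. With upper quartile scaling, which lowered the median of all genes to -0.07, the calls were 925 higher and 1022 lower against 1065 and 753, and those of the WNT genes 5 and 6. The median log2 fold change was -0.13 over the 29 genes and -0.01 over all genes tested. PBS and rmCIRBP values were fully separate for 15 of the 29, against 34.6% of all genes tested. The calls of Fzd2, Sfrp1, Frzb and Rspo3 held in each of 16 alternative analyses, and those of the other 6 were lost in at least 1 of them.

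**Figure D1:**
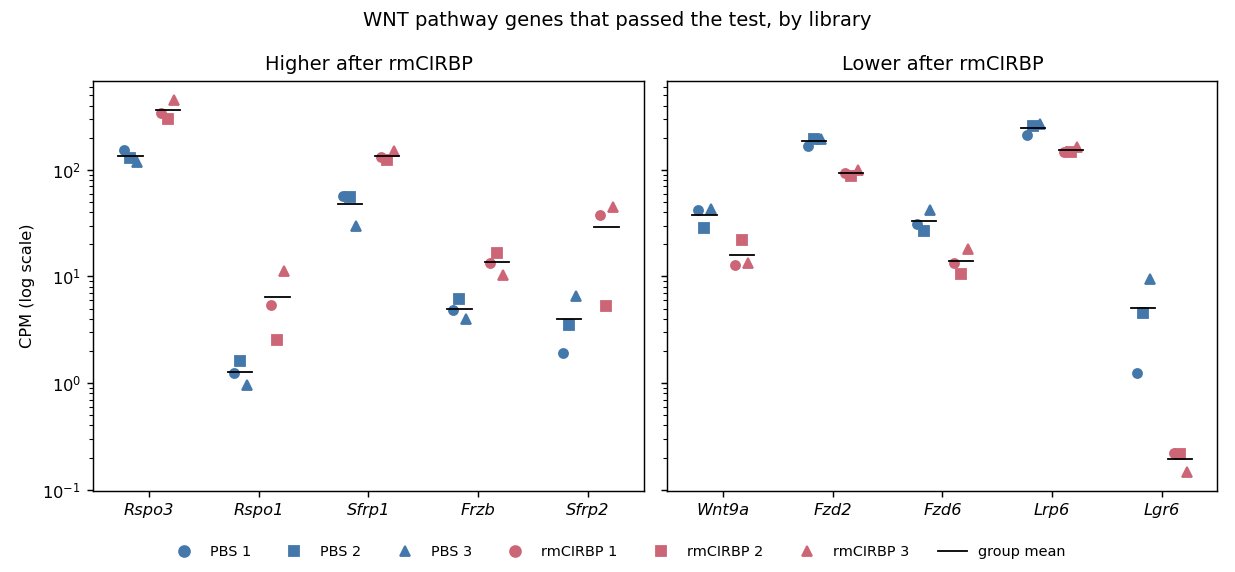
CPM (log scale) of the 10 WNT genes that passed the test, 1 point per library (colour, group; shape, replicate number) with a line at the group mean. The groups do not overlap except for Sfrp2, where rmCIRBP 2 (5.27 CPM) lies below PBS 3 (6.55 CPM).

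The frizzled receptors carry the WNT signal across the membrane, and 8 of the 10 were tested. Per kilobase of exon, Fzd2, Fzd1 and Fzd7 were the most abundant in PBS, at 50.6, 39.0 and 37.3 CPM per kb, and the others that were tested lay between 0.563 and 15.7 CPM per kb. After rmCIRBP the order of these 3 became Fzd7 at 36.4, Fzd1 at 33.0 and Fzd2 at 25.3 CPM per kb. Fzd2 thus went from the top of the order to below the other two. Neighbours in that order were not fully separate, since the libraries of Fzd1 overlapped in range with those of Fzd2 and of Fzd7 in both groups. The level summed over the 10 frizzled genes was 149, 186 and 171 CPM per kb in PBS 1 to 3 and 125, 105 and 140.5 CPM per kb in rmCIRBP 1 to 3, without overlap. Much of that difference was Fzd2 itself, at 50.6 of a mean sum of 169 CPM per kb in PBS and 25.3 of 123 in rmCIRBP. The sum is therefore no separate sign of a fall across the family.

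Fzd2 (chromosome 11, 102604396 to 102608058, + strand, GRCm38) stood at 169, 193 and 194 CPM in PBS 1 to 3 and at 92.6, 87.0 and 98.9 CPM in rmCIRBP 1 to 3. All rmCIRBP libraries were thus far below all PBS libraries, and the spread within each group was small. The difference was -0.998 ± 0.11 on the log2 scale (± SE here and below; edgeR adjusted p = 0.00146), and stayed between -1.06 and -0.95 in the alternatives. Fzd6, a receptor best known from tissue polarity (chromosome 15, 39006034 to 39038188, + strand), was at 30.7, 26.5 and 41.6 CPM in PBS and 13.4, 10.5 and 18.0 CPM in rmCIRBP. The groups did not overlap, and the log2 fold change was -1.24 ± 0.24 (edgeR adjusted p = 0.0157). This call was lost without PBS 3 (edgeR adjusted p = 0.0568) or rmCIRBP 1 (0.0673).

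The other frizzled genes did not pass. Fzd7 was at 165, 177 and 165 CPM in PBS and at 160, 158 and 177 CPM in rmCIRBP, with a log2 fold change of -0.04 ± 0.10 (edgeR adjusted p = 0.847). Its groups overlapped almost completely. Fzd1 was at 128, 197 and 166 CPM in PBS and at 155.5, 84.7 and 176 CPM in rmCIRBP, where rmCIRBP 2 was lowest of all (log2 fold change -0.24 ± 0.27). Fzd8 was at 69.4, 123 and 88.2 CPM in PBS and at 57.3, 58.8 and 61.1 CPM in rmCIRBP, without overlap, and its log2 fold change of -0.66 ± 0.19 did not pass (edgeR adjusted p = 0.0634). Fzd8 was called lower in 5 of the 16 alternatives, among them DESeq2 (adjusted p = 0.0224) and edgeR without PBS 1 (0.0190). Fzd5, which gave 63.4, 66.1 and 70.5 CPM in PBS and 50.1, 45.4 and 59.1 CPM in rmCIRBP, was separate between groups but not called (-0.37 ± 0.12 on the log2 scale; edgeR adjusted p = 0.0878). Fzd4 was at 52.6, 76.2 and 52.9 CPM and at 45.9, 41.1 and 63.2 CPM, and the groups overlapped (log2 fold change -0.27 ± 0.20). Fzd3, an axon guidance receptor, was at a mean of 7.21 and 8.52 CPM. Fzd9 and Fzd10, with 14 and 35 counts over all libraries, were too low to test. Fzd10 had 2, 4 and 7 counts in PBS 1 to 3 and 7, 7 and 8 in rmCIRBP 1 to 3, so that PBS 3 tied with rmCIRBP 1 and 2. Only after scaling was each rmCIRBP library (0.505 to 0.586 CPM) above each PBS library (0.166 to 0.478 CPM). Over all genes tested, 34.6% had groups that did not overlap.

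Of the co-receptors, Lrp6 fell and Lrp5 did not pass. Lrp6 (chromosome 6, 134446476 to 134566965, - strand) was at 211, 257 and 267 CPM in PBS and at 146, 147 and 164 CPM in rmCIRBP. The groups lay well apart, with a log2 fold change of -0.69 ± 0.13 (edgeR adjusted p = 0.0131), although the call was lost without PBS 2 (edgeR adjusted p = 0.0654), PBS 3 (0.0552) or rmCIRBP 1 (0.0694). Lrp5 was at 47.7, 64.3 and 55.8 CPM in PBS and 59.2, 61.0 and 71.1 CPM in rmCIRBP, with overlap (log2 fold change 0.19 ± 0.14). Whether the 2 co-receptors differ in their response was not tested. Per length, Lrp6 went from 17.9 to 11.1 CPM per kb and Lrp5 from 5.74 to 6.55 CPM per kb.

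The ROR kinases bind WNT5A and act outside the β-catenin route. Ror2 was at 18.8, 23.0 and 18.4 CPM in PBS and at 33.3, 27.9 and 25.4 CPM in rmCIRBP. Each rmCIRBP library was above each PBS library, but the log2 fold change of 0.52 ± 0.15 did not pass in edgeR (adjusted p = 0.0634), while DESeq2 called it (adjusted p = 0.0365). Ror1 gave 12.9, 23.2 and 17.9 CPM in PBS and 11.2, 6.64 and 17.1 CPM in rmCIRBP, with overlap (log2 fold change -0.63 ± 0.35; edgeR adjusted p = 0.272).

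**Figure D2:**
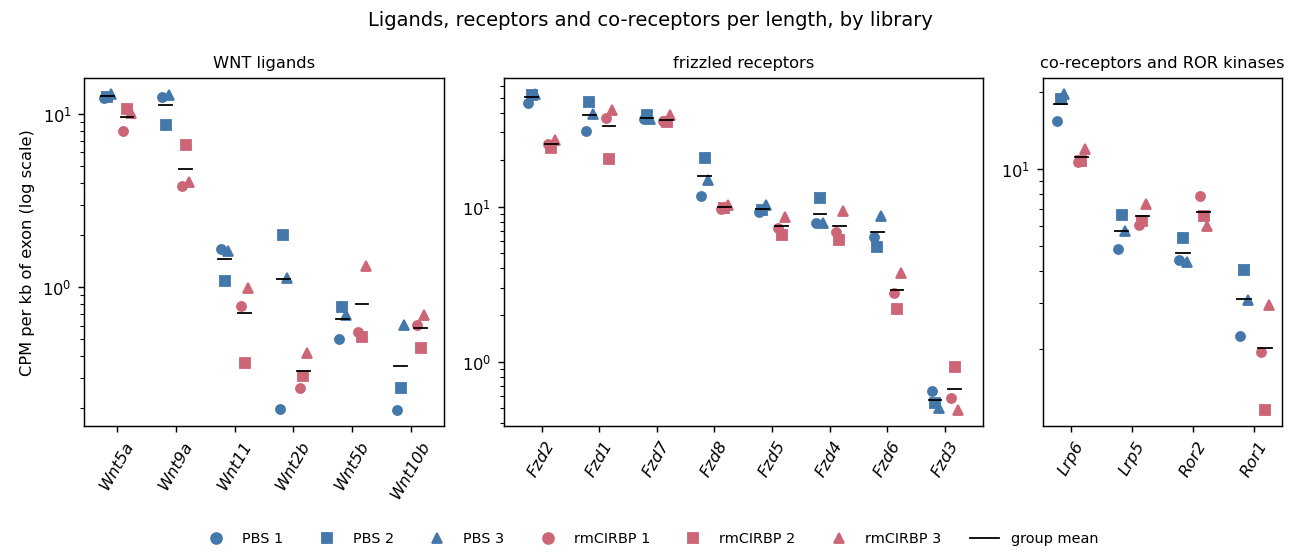
CPM per kb of exon (log scale) of the tested WNT ligands, frizzled receptors and co-receptors, 1 point per library (colour, group; shape, replicate number) with a line at the group mean. Wnt5a and Wnt9a lie above the other ligands in both groups, and Fzd2 drops from a mean of 50.6 to 25.3 CPM per kb while Fzd7 goes from 37.3 to 36.4.

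Of 19 WNT ligand genes 6 were tested, and 1 was called, against 11.5% of all genes tested. Per length, Wnt5a, the best known activator of the β-catenin-independent route, and Wnt9a held 44.5% and 39.9% of the summed ligand level in PBS and 55.0% and 27.7% in rmCIRBP. Summed over the family, the level was 28.3, 25.8 and 31.0 CPM per kb in PBS 1 to 3 and 14.5, 19.3 and 18.3 CPM per kb in rmCIRBP 1 to 3, so that all rmCIRBP libraries were lower. Much of that difference was Wnt9a, at 11.3 of a mean sum of 28.3 CPM per kb in PBS and 4.82 of 17.4 in rmCIRBP. The sum is therefore no separate sign of a fall across the ligands. Wnt9a (chromosome 11, 59306928 to 59333552, + strand), a ligand that can act through β-catenin, was at 41.7, 28.6 and 42.6 CPM in PBS and 12.7, 22.0 and 13.4 CPM in rmCIRBP. The groups did not overlap, PBS 2 and rmCIRBP 2 lying closest to each other, and the log2 fold change was -1.23 ± 0.25 (edgeR adjusted p = 0.0190). The call was lost without PBS 3 (edgeR adjusted p = 0.0772), rmCIRBP 1 (0.0732) or rmCIRBP 3 (0.0517).

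Wnt5a was at 96.3, 98.4 and 101.5 CPM in PBS and at 62.0, 82.9 and 79.6 CPM in rmCIRBP. All rmCIRBP libraries were below the tight PBS group, yet the log2 fold change of -0.40 ± 0.13 did not pass (edgeR adjusted p = 0.0796), and was called in 1 alternative, without PBS 1 and rmCIRBP 2 (0.0437). Wnt11 gave 6.89, 4.47 and 6.69 CPM in PBS and 3.23, 1.52 and 4.099 CPM in rmCIRBP, without overlap and without passing (log2 fold change -1.03 ± 0.37; edgeR adjusted p = 0.114). Wnt2b was uneven within PBS, at 0.830, 8.36 and 4.78 CPM, against 1.10, 1.30 and 1.76 CPM in rmCIRBP. Its log2 fold change of -1.74 ± 0.69 (edgeR adjusted p = 0.142) was called only where low counts were not filtered (0.0386), without PBS 1 (0.0137) and without PBS 1 and rmCIRBP 2 together (0.0126). Wnt5b (means of 1.73 and 2.12 CPM) and Wnt10b (1.20 and 1.97 CPM) did not pass.

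The other 13 ligand genes had too few counts to be tested. Wnt2, a ligand of lung mesenchyme in development, had 13, 6 and 14 counts in PBS and 5, 0 and 5 in rmCIRBP, so that the groups did not overlap. The pooled counts gave a PBS level of Wnt2 3.48 times that of rmCIRBP (95% exact interval 1.68 to 7.92, counting error only). Wnt4 had 27 and 18 counts over the groups. Wnt6 had 5, 0 and 5 counts in PBS and 6, 6 and 12 in rmCIRBP, also without overlap but in the other direction. Over all genes tested, 34.6% had groups that did not overlap. No count was found for Wnt3a, Wnt8b or Wnt9b, and Wnt1, Wnt3, Wnt7a, Wnt7b, Wnt8a, Wnt10a and Wnt16 had 1 to 9 counts over all 6 libraries. At 9 counts or fewer, these 10 genes allow no comparison of the groups.

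Of 6 genes for secreted WNT-binding proteins 3 were tested, and all 3 were called higher, against 6.74% of all genes tested. The RNA level summed over the 6 genes was 15.4, 16.4 and 11.2 CPM per kb in PBS 1 to 3. It was 51.8, 35.9 and 58.9 CPM per kb in rmCIRBP 1 to 3. Sfrp1 (chromosome 8, 23411502 to 23449632, + strand) held most of this in both groups. It was at 57.0, 55.8 and 29.7 CPM in PBS and at 131, 124 and 151 CPM in rmCIRBP, so that the lowest rmCIRBP library was above the highest PBS library. Its log2 fold change was 1.51 ± 0.24 (edgeR adjusted p = 0.00710), a 2.85-fold rise. Frzb, also known as Sfrp3 (chromosome 2, 80411970 to 80447625, - strand), was at 4.82, 6.09 and 4.03 CPM in PBS and at 13.5, 16.8 and 10.3 CPM in rmCIRBP. It rose without overlap, by a log2 fold change of 1.44 ± 0.25 (edgeR adjusted p = 0.0101).

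Sfrp2 (chromosome 3, 83766321 to 83774316, + strand) differed from library to library. It was at 1.91, 3.49 and 6.55 CPM in PBS and at 37.9, 5.27 and 44.9 CPM in rmCIRBP. The rmCIRBP 1 and 3 libraries were far above PBS, whereas rmCIRBP 2 lay inside the PBS range. The log2 fold change was 2.86 ± 0.75 (edgeR adjusted p = 0.0475), and the call was lost in 8 of 16 alternatives, among them limma voom (adjusted p = 0.192), the robust edgeR fit (0.0560) and edgeR without PBS 1 (0.0941), PBS 2 (0.160), PBS 3 (0.0931), rmCIRBP 1 (0.124) or rmCIRBP 3 (0.0938). Without rmCIRBP 2 the log2 fold change was 3.35 (edgeR adjusted p = 0.00105). An exon of Sfrp2 is overlapped on the other strand by Gm26771, which had 3, 5 and 13 counts in PBS and 70, 16 and 104 in rmCIRBP, within each group the same order of libraries as Sfrp2. Without a stated strand setting the reads of such a pair cannot be told apart. The same limit holds for the tested genes Rspo3, Fzd6, Fzd5, Wnt5a and Wnt11, which also have exons overlapped on the other strand. At Fzd6, Gm26704 had 12, 10 and 10 counts in PBS and 2, 1 and 9 in rmCIRBP. At Fzd5, Gm38058 had 138, 141 and 184 in PBS and 107, 111 and 152 in rmCIRBP. Of the other secreted WNT-binding genes, Sfrp4 had 10 counts in PBS and 14 in rmCIRBP, 13 of them in rmCIRBP 3, Wif1 had 1 count and Sfrp5 none.

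Neither tested Dickkopf gene was called by edgeR or DESeq2, and 0 of the 2 had an unadjusted p under 0.05. Dkk3, a divergent member of the family, was the most abundant at 80.3 and 64.4 CPM per kb, with 242, 274 and 293 CPM in PBS and 222, 179 and 249 CPM in rmCIRBP. The groups overlapped slightly (log2 fold change -0.32 ± 0.15; edgeR adjusted p = 0.204). Dkk2, an LRP6 ligand, was at 23.7, 28.0 and 23.7 CPM in PBS and 25.2, 36.7 and 15.0 CPM in rmCIRBP, so that the rmCIRBP libraries lay on both sides of PBS (log2 fold change 0.03 ± 0.28). Dkk1, the LRP5 and LRP6 antagonist, had 1, 0 and 1 counts in PBS and 4, 0 and 7 in rmCIRBP, and Dkk4 had none.

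The R-spondins strengthen WNT signals by protecting frizzled receptors from removal. Rspo3 (chromosome 10, 29452416 to 29535867, - strand) held 93.0% of the summed R-spondin level per length in PBS and 95.4% in rmCIRBP. It was at 154, 129.5 and 118 CPM in PBS and at 344, 301 and 455.7 CPM in rmCIRBP. The groups were far apart, with a log2 fold change of 1.46 ± 0.18 (edgeR adjusted p = 0.00264), a 2.74-fold rise that ranged from 1.27 to 1.70 on the log2 scale over the alternatives. Gm48159, which overlaps an exon of Rspo3 on the other strand, had 319, 276 and 313 counts in PBS and 941, 867 and 1273 in rmCIRBP. Rspo3 itself had 1595 to 1851 counts per library in PBS and 4175 to 6226 in rmCIRBP.

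Rspo1 (chromosome 4, 124986430 to 125009099, + strand) was low in PBS, at 1.25, 1.62 and 0.955 CPM, and reached 5.43, 2.53 and 11.2 CPM in rmCIRBP. Each rmCIRBP library was above PBS, with rmCIRBP 2 the nearest. Its log2 fold change was 2.32 ± 0.55 (edgeR adjusted p = 0.0337). The call was lost in 7 of 16 alternatives, among them limma voom (adjusted p = 0.0911) and edgeR without PBS 1 (0.0664), PBS 2 (0.0947), PBS 3 (0.129), rmCIRBP 1 (0.0764) or rmCIRBP 3 (0.0620). Rspo2 spread within both groups, at 5.23, 11.5 and 22.4 CPM in PBS and 14.7, 2.96 and 18.3 CPM in rmCIRBP, and did not pass (log2 fold change -0.13 ± 0.66). Rspo4 had 6 counts in all.

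Of the LGR genes, which encode receptors for R-spondins, Lgr6 was called lower. Lgr4, the most abundant at 3.89 and 4.88 CPM per kb, was at 22.8, 25.9 and 19.9 CPM in PBS and 26.9, 31.2 and 28.1 CPM in rmCIRBP, higher in each rmCIRBP library but not called (log2 fold change 0.33 ± 0.14; edgeR adjusted p = 0.157). Lgr6 (chromosome 1, 134983301 to 135105276, - strand) had 15, 56 and 139 counts in PBS and 3, 3 and 2 in rmCIRBP, that is 1.25, 4.55 and 9.49 CPM against 0.220, 0.216 and 0.146 CPM. It passed the filter on low counts through PBS alone, so its call is a description of a gene kept for its PBS level. The pooled counts gave a PBS level 27.7 times that of rmCIRBP (95% exact interval 13.8 to 65.0, counting error only), and the fit gave a log2 fold change of -4.66 ± 0.83 (edgeR adjusted p = 0.0119). In CPM, PBS 1 differed from PBS 3 by more than from the rmCIRBP libraries. The call was lost without rmCIRBP 1 (edgeR adjusted p = 0.0538) and with limma voom (adjusted p = 0.0723), and without PBS 3 the log2 fold change was -3.83. Lgr5 had 15 counts in PBS and 6 in rmCIRBP.

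**Figure D3:**
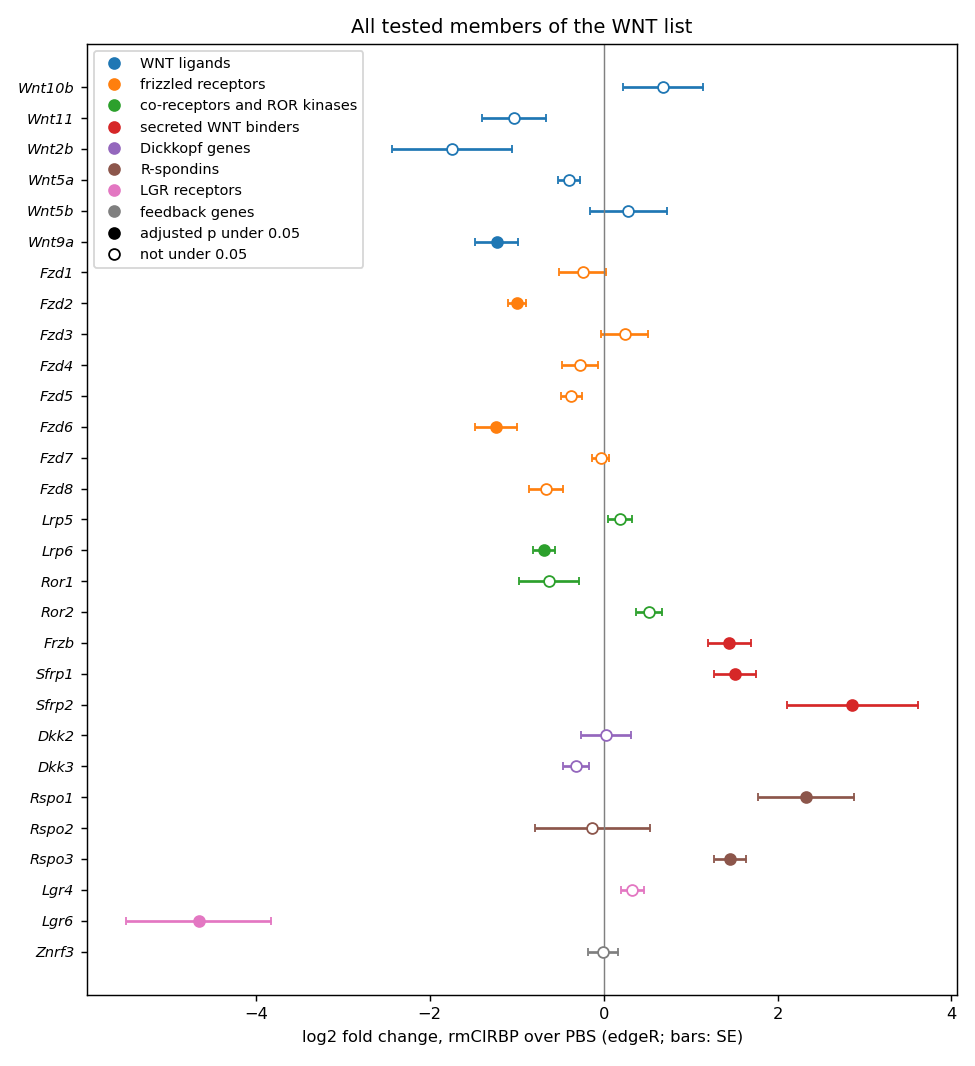
Log2 fold change of rmCIRBP over PBS (bars, SE) for the 29 tested WNT genes, coloured by role and filled where the edgeR adjusted p was under 0.05. Filled points right of 0 are R-spondins and secreted WNT binders, and those left of 0 are Wnt9a, Fzd2, Fzd6, Lrp6 and Lgr6.

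Axin2, Znrf3, Rnf43 and Notum are feedback genes that β-catenin signalling is known to induce in many tissues, and 1 of the 4 could be tested. Znrf3 was at 7.72, 9.91 and 8.67 CPM in PBS and at 9.25, 8.30 and 8.64 CPM in rmCIRBP. Its groups overlapped, and the log2 fold change was -0.01 ± 0.17 (edgeR adjusted p = 0.985). Axin2, the most widely used reporter of the pathway, had 3, 5 and 1 counts in PBS and 11, 1 and 13 in rmCIRBP. The rmCIRBP 1 and 3 libraries held nearly all of the rise and rmCIRBP 2 none, so the groups overlapped. Pooled, its level in rmCIRBP was 2.63 times that in PBS, with a 95% exact interval of 1.19 to 6.41 that covers counting error only and not the spread between libraries. Rnf43 had 8 and 9 counts and Notum 7 and 2.

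Several of these genes shared a low value in rmCIRBP 2. Sfrp2, Rspo1, Rspo2, Axin2 and Dkk1 were each lower there than in rmCIRBP 1 and 3, as were Fzd1, Ror1, Sfrp1, Rspo3, Fzd2 and Fzd6. Wnt9a, Frzb, Wnt5a, Lgr4, Dkk2 and Fzd3 were instead higher there, Frzb at 16.8 CPM against 13.5 and 10.3 CPM. Lrp6 and Lgr6 lay between. These genes were chosen after their values were seen. The same library was highest in the sum of smooth muscle and pericyte markers (10040 CPM), most of it Acta2 (6265 CPM). In that list Notch3 (31.1 CPM) and Rgs5 (2.24 CPM) were instead lowest in rmCIRBP 2 within the group, and Cspg4 lay between. Pdgfra, a fibroblast marker, was at 346.5 CPM in rmCIRBP 2 against 770 and 759 CPM in rmCIRBP 1 and 3 and 417 to 433 CPM in PBS. Col1a2, Col3a1, Pdgfrb, Dcn and Lum were also lowest of the group in rmCIRBP 2. Col1a1, Thy1 and Vim lay between rmCIRBP 1 and 3, and Fn1 was highest in rmCIRBP 2 (11560 CPM). The part of these differences in the results was not tested. PBS 1 and rmCIRBP 2 were the libraries highest in the summed smooth muscle and pericyte markers within their groups. Without them, 5 WNT genes were called higher and 8 lower (5 and 5 with all libraries). Over all genes, 1669 were called higher and 1133 lower of 16027 tested, against 1065 and 753 of 15801 with all libraries.

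**Figure D4:**
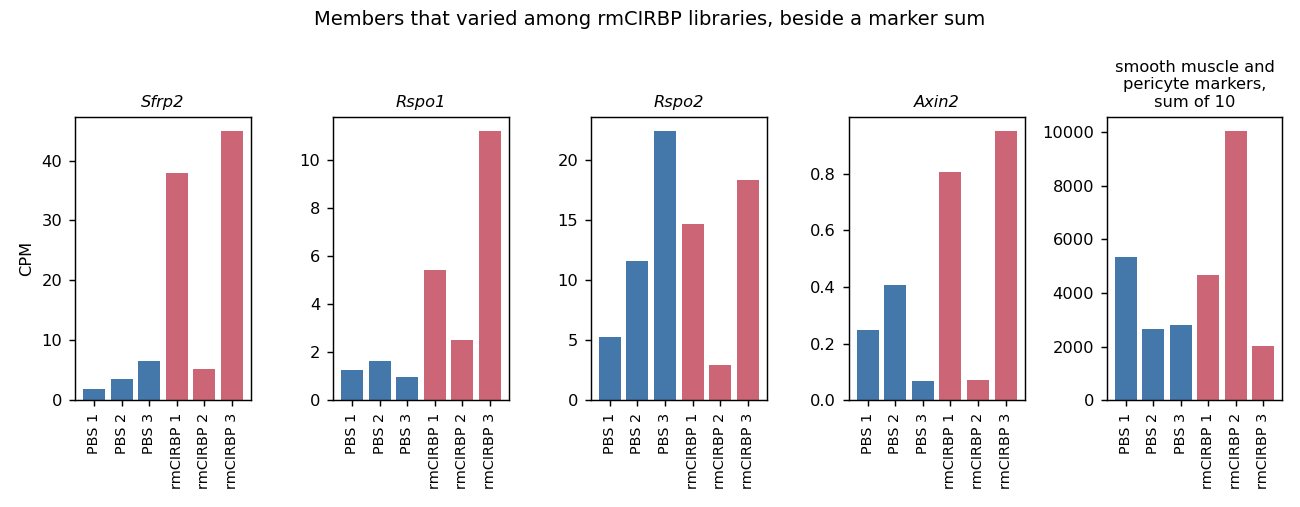
CPM by library of Sfrp2, Rspo1, Rspo2 and Axin2, and the summed CPM of 10 smooth muscle and pericyte markers (blue, PBS; red, rmCIRBP). The rmCIRBP 2 library is lowest of its group in the 4 genes (Sfrp2 at 5.27 CPM against 37.9 and 44.9) and highest in the marker sum (10040 CPM).

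Promoter sequences are shown for called genes of each direction, to set their letters side by side. RefSeq windows (GRCm38.p6) from 250 bases before to 50 after the start were matched for 35 of the 54 genes. These included Rspo1, Sfrp2 and Frzb of the genes called higher and Lgr6 and Wnt9a of those called lower. Each was searched on both strands for a TCF/LEF motif, CTTTGAA or CTTTGAT, through which β-catenin acts, and for the NF-kB consensus. A TCF/LEF motif was found in Dkk1, Wnt11 and Wnt5b, 3 of 35 genes, and in none of the 5 called ones, against 9.88% of the 27025 genes with a window. An NF-kB match was found in Rspo1 and Wnt10b, 2 of 35 genes, against 5.14% of all genes with a window. In Rspo1 it crosses the start, from 3 bases before it to base 8 after it, and consists of overlapping matches. The sequences before the start are given for 4 called genes, 5′ to 3′ on the gene's strand, with NF-kB letters in capitals. They run at chr4:124986180-124986437 (+) for Rspo1, which extends to the end of the match, at chr3:83766071-83766320 (+) for Sfrp2, at chr1:135105277-135105526 (-) for Lgr6 and at chr11:59306680-59306929 (+) for Wnt9a. The window of Wnt9a is 83.3% G and C, and those of Rspo1, Sfrp2 and Lgr6 are 69.0%, 66.0% and 67.7%. A match of letters is no evidence of binding, and the lack of one says only that these letters are not in this window.
Rspo1: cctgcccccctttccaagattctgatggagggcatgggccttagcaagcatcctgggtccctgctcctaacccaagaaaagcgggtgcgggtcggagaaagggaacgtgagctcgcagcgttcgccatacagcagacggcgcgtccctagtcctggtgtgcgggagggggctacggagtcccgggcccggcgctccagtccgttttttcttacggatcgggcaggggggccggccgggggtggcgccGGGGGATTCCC
Sfrp2: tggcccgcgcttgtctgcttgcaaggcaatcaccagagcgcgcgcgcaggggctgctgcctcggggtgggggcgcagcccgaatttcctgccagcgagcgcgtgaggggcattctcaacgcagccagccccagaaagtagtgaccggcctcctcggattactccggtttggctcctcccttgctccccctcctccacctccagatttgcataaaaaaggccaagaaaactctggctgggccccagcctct
Lgr6: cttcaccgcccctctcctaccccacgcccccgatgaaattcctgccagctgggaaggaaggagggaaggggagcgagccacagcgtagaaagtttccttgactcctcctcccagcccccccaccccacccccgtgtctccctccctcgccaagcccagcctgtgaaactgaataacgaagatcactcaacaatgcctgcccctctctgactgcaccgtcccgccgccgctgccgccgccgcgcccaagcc
Wnt9a: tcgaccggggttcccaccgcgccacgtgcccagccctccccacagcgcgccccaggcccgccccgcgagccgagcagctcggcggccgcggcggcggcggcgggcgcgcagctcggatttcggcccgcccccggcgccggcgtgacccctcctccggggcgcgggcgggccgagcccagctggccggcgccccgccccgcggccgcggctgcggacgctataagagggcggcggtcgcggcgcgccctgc

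Genes that pass on or read the signal inside the cell were taken from a separate list. Among its 26 tested intracellular transducers 1 was called higher and 1 lower, against 11.5% called over all genes tested (median log2 fold changes -0.12 and -0.01). Tcf7l2, a DNA-binding partner of β-catenin, fell from 73.6 ± 0.393 to 36.1 ± 8.08 CPM (mean ± SD of 3 libraries), a log2 fold change of -1.03 ± 0.16 (edgeR adjusted p = 0.00767). Csnk1a1, a kinase of the β-catenin destruction complex, was called higher by 0.41 ± 0.11 on the log2 scale (edgeR adjusted p = 0.0462), a call lost in 9 alternatives, among them scaling by library size (0.0535) and by upper quartile (0.0708), and leaving out PBS 2 (0.155), PBS 3 (0.148), rmCIRBP 1 (0.153), rmCIRBP 2 (0.0619) or rmCIRBP 3 (0.0832). Ctnnb1, β-catenin itself, named after its value was seen, had a log2 fold change of 0.08 ± 0.11 (edgeR adjusted p = 0.700). A further list held 7 genes of WNT secretion and related steps: Wls, Porcn, Vps35, Tmed2, Tmed5, Mesd and Trabd2b. Of these, 0 were called by edgeR (2, Mesd and Wls, at an unadjusted p under 0.05) and 0 by DESeq2.

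In the list of other co-receptors and polarity genes 1 of 17 tested was called, against 11.5% of all genes tested (median log2 fold changes -0.39 and -0.01). It was Daam1, a formin that acts downstream of Dishevelled in polarity signalling, higher by 0.73 ± 0.11 on the log2 scale (edgeR adjusted p = 0.00732). Of 6 tested modulators outside the families, some secreted and some at the membrane, 1 was called higher and 1 lower. The shares over all genes tested were 6.74% and 4.77%, and the median log2 fold change of the 6 was -0.405. Apcdd1, a WNT inhibitor at the membrane, rose by 1.19 ± 0.24 (edgeR adjusted p = 0.0193). Its call was lost in edgeR without PBS 2 (0.0516), PBS 3 (0.0808), rmCIRBP 1 (0.0749) or rmCIRBP 3 (0.0503). In the same list Cthrc1, a secreted protein known to favour the WNT polarity route, fell by 2.04 ± 0.22 (edgeR adjusted p = 0.00146). Of 19 tested genes often used as WNT targets, 6 were called higher and 2 lower, where 6.74% and 4.77% were called over all genes tested (median log2 fold changes 0.63 and -0.01). Apcdd1 stands in this list too and is counted again among the 6. Cd44 (2.57 ± 0.12; edgeR adjusted p = 3.23e-05), Fosl1 (2.19 ± 0.27) and Ccn5 (1.09 ± 0.17) rose on the log2 scale, and Fgf18 (-4.06 ± 0.30) fell. Lef1 and Sp5, targets used as readouts in many cell types, were too low to test, at means of at most 0.0730 CPM. Genes often used as WNT targets can also respond to other signals, and the part of WNT signalling in these changes, up or down, was not tested.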

How the data were processed

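Raw counts per gene were deposited by the authors as 1 table with a column per library, and columns were matched to samples by group and number, leaving 0 unmapped. Per the submitters' processing notes, featureCounts, DESeq2 and R 4.1.2 were used with GRCm38 (mm10). The aligner, annotation release, strand setting and treatment of multi-mapping reads are, in the sources used here, not given. The table lists 55487 genes and 0 lines that name no gene. The analysis used edgeR 4.0.16 in R 4.3.3: filterByExpr by group (15801 genes kept), scaling by trimmed mean of M values, quasi-likelihood F test, two-sided, treatment as the only term, and Benjamini-Hochberg adjustment over all genes tested at 0.05. Standard errors were derived from each F statistic. CPM use the scaled library sizes, and lengths are merged exons of a GENCODE annotation of GRCm38, found for 54 of the 54 genes. Alternatives were DESeq2 1.42.0, limma voom 3.58.1, a robust fit, other scalings and filters, the replicate number as a block, and leaving out libraries. The test was tried on simulated counts. The genes, lists and tests were chosen with earlier results of these data known. Named are all 54 genes, those called or at a mean of 10 CPM or more with a value per library, up to 4 called genes of each of 5 context lists, and marker lists by their sums.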

Additional observations from a re-analysis of the deposited data

How the results depend on the processing

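In 16 alternatives the 10 called WNT genes kept their direction. Of 464 results for the 29 tested genes, 428 kept their side of the threshold, 25 lost a call, 11 gained one and none reversed a call. The number called higher was 5 in the reported fit, 3 with limma voom and with the replicate block, 4 with the robust edgeR fit, and 6 with DESeq2 and without a filter on low counts. Leaving out 1 library gave 3 to 5 called higher, 1 to 7 called lower, and 723 to 2144 called over all genes (1818 with all libraries). The count called lower was 1 without rmCIRBP 1, 2 without PBS 3 and 7 without PBS 1, and over all genes 723 without PBS 2, 742 without rmCIRBP 1 and 863 without PBS 3. Without PBS 1 and rmCIRBP 2 together, 2802 genes were called in all, and 8 WNT genes were called lower. Upper quartile scaling gave 925 higher and 1022 lower over all genes (1065 and 753 in the reported fit). Samples of the same number are not known to be pairs: their deviations from the group means correlated at -0.11, -0.17 and 0.25 across genes, and not every library correlated best with its own number. With the block 1258 genes were called, 5 WNT genes lower, and the calls of Sfrp2 (edgeR adjusted p = 0.0577), Rspo1 (0.0716), Csnk1a1 (0.109) and Apcdd1 (0.0514) were lost. Depth left 25 of the 54 genes untested, with at most 45 counts each over all libraries.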
